A study of Mus musculus with 8 samples.

Results

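The skeletal muscle genes described here are 32 of the 35896 genes in a table of estimated read counts from cultured mouse molar tooth germs. They were taken by gene name, not by their values. They comprise 5 transcription factors of the muscle lineage, 18 genes of the sarcomere, and 9 genes of cell fusion, the cytoskeletal scaffold, the muscle membrane and endplate, and energy supply. Of the 32, 30 passed the filter on low counts and were tested, and Myf6 and Ckm did not.

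The germs, the embryonic buds of the molars, were dissected from mouse embryos carrying the BRE-GFP reporter, which reads out BMP-Smad signalling, and were cultured with their treatment for 1 day. E12.5 germs received SIS3, an inhibitor of Smad3, or SB431542, which blocks the type I receptors of TGF-beta and activin. DMSO, the solvent, was given to E13.5 germs as a stage control and to E12.5 germs as the common reference. All groups thus share the reporter genotype and the culture, and neither doses nor the number of germs or animals pooled is given in the sources used here. The SIS3 pair was prepared with the TruSeq RNA Sample Preparation Kit v2 and every other group with the SMARTer Universal Low Input RNA Kit, so that SIS3 and the kit cannot be told apart in any SIS3 value below.

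Each group has 2 deposited columns, with totals of 5995709 and 9427262 counts for SIS3, 14081043 and 14080745 for SB431542, 8759887 and 8759231 for E13.5 DMSO and 15487375 and 15487635 for E12.5 DMSO. Counts given per column below are raw and carry these depths, and groups are compared in CPM (counts scaled to the total) or by the fit. The paired columns of the SB431542, E13.5 DMSO and E12.5 DMSO groups had totals within 0.00749% of each other, and over genes with 1 annotated transcript their median squared difference was 1.22 to 1.3 times that of dividing 1 set of reads at random, so each pair was counted as 1 sample. The mean of that ratio was 1.59 to 2.81, and over genes with 2 or more transcripts the median was 1.72 to 2.26 and the mean 2.88 to 3.66. For the SIS3 pair the median was 8.05 and 12.1 over the same classes and the totals differed by 44.5%, and the pair was kept as 2 libraries. The 5 libraries held 5995709, 9427262, 28161788, 17519118 and 30975010 counts. A library at 0 counts can still hold up to 3 counts' worth of a gene, which is 0.5, 0.318, 0.107, 0.171 and 0.0969 CPM in that order.

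Skeletal muscle forms in steps. Pax7 marks muscle progenitors, Myf5 and Myod1 commit them to the lineage, Myog drives differentiation, and Myf6 acts late. Myoblasts then fuse, for which the membrane protein Mymk is needed, and build sarcomeres from thin filaments of actin, nebulin and troponins, thick filaments of myosin, the giant spring titin and the Z-disc. The factors bind E-boxes, short DNA motifs of the form CANNTG, and muscle promoters often hold them. A tooth germ is mainly epithelium and neural-crest mesenchyme. In bulk RNA such as this, fewer cells of a type and less RNA per cell cannot be told apart.

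Since the factors act through motifs in the promoters of muscle genes, the 250 bases before the start are printed for 5 genes. These are 4 of the 6 genes that fell with SIS3 and Klhl41, a sarcomere-associated scaffold gene that did not. They were chosen with the values known and because the window holds 0 bases of an annotated exon. The sequences are RefSeq's for GRCm38.p6, 5′ to 3′ on the gene's strand, with each CANNTG in capitals.
Myh3 chr11:67078050-67078299 (plus strand): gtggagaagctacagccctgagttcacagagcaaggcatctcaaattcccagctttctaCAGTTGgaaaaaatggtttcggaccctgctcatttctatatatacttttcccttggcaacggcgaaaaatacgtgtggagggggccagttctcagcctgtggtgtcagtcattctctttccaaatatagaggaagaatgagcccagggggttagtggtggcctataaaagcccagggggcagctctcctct
Tnnt2 chr1:135836084-135836333 (plus strand): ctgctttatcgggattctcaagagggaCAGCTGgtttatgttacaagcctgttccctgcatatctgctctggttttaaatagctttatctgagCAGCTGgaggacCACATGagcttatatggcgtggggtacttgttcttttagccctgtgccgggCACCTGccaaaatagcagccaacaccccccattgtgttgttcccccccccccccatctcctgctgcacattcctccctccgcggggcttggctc
Ttn chr2:76982548-76982797 (minus strand): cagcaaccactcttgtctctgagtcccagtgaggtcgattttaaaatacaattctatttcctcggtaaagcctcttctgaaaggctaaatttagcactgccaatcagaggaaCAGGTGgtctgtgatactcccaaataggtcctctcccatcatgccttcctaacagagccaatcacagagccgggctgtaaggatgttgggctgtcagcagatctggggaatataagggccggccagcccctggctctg
Des chr1:75360042-75360291 (plus strand): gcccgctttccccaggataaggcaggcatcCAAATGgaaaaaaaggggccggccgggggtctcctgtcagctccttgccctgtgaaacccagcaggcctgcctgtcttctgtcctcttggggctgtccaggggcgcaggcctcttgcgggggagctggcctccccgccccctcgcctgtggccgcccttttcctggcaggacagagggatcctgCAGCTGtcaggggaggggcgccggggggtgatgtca
Klhl41 chr2:69669870-69670119 (plus strand): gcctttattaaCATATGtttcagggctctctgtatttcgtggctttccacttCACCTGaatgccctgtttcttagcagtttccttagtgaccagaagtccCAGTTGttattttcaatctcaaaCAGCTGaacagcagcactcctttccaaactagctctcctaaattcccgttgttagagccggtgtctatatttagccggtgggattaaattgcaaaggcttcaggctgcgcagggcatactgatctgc
The E-boxes number 1 in the Myh3 window, 4 in Tnnt2, 1 in Ttn, 2 in Des and 4 in Klhl41. Whether the number of E-boxes bears on the response to SIS3 was not tested. The form CAGCTG is present in the Tnnt2, Des and Klhl41 windows. The motif CTANNNNTAG, a loose form of the site of MEF2 factors with any base at N, occurs in the Ttn and Klhl41 windows. Across the 26 promoter records found for 24 of the 32 genes, 22 held CANNTG, against 66.2% of all 32817 promoter records, and 13 held CAGCTG, against 13%. CTANNNNTAG was in 3 of the 26 (Klhl41, Ttn and Myf5), against 3.2% of all records. MEF2 sites have A or T in the core, which holds G in the Myf5 match, so this is not a count of MEF2 sites. The CArG box of serum response factor was in 2 (Actc1 and Acta1), against 1.47%. Every CAGCTG is also a CANNTG, and each of the 4 motifs reads the same on both strands. The 2 Tnni1 records overlap, and the same CAGCTG is counted in each. For 13 of the 24 genes a window holds 0 exon bases, and those of Pax7 and of 1 Tnnt2 record lie wholly in exons. In 23 of the 26 records a stretch after the start was found in the gene's annotated transcripts, and in the rest it was not. A match is a description of letters and not of binding.

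Of the 32 members, 18 are sarcomere genes by the choice of the list, so sums over the members lean to the sarcomere. CPM values were divided by the length of the longest coding transcript to compare genes. In the E12.5 DMSO library the highest level per kilobase was 36.5 for Actc1, the cardiac-type actin that embryonic skeletal muscle also uses. Myl4, an embryonic and atrial myosin light chain, had 16.9, and Tnnt1, the slow troponin T, 14.7. Myog followed at 12.9, above the embryonic myosin heavy chain Myh3 at 11.6 and well above the other factors. Myod1 had 4.15, Pax7 0.612, Myf5 0.341 and Myf6, with a single count in 8 columns, 0.0256. Not far below Myh3 lay the skeletal actin Acta1 at 10.45, the fast light chain Myl1 at 10.1 and Mylpf, also of the thick filament, at 8.43. Ttn, with a transcript of 106824 bases, took 58% of the members' counts in that library, and its level per kilobase was 5.59. Ckm, the creatine kinase of mature muscle, had 2 counts in all 8 columns together.

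**Figure D1:**
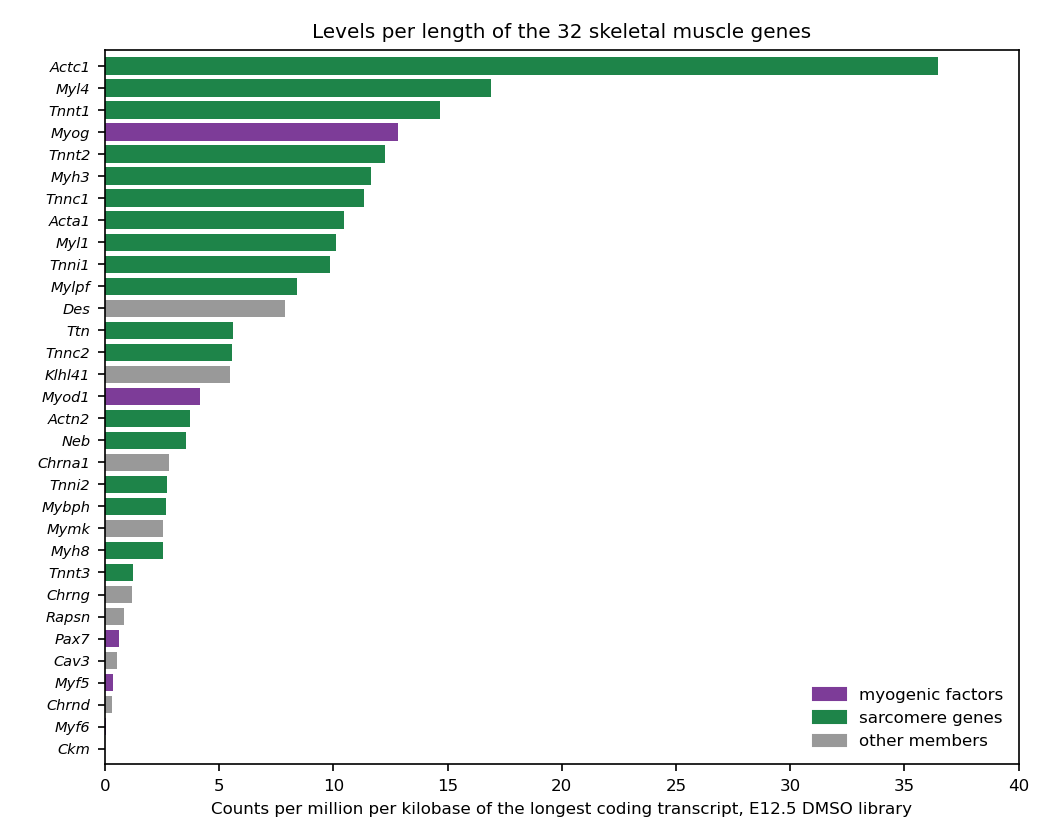
Level of each of the 32 genes in the E12.5 DMSO library, in CPM per kilobase of the longest coding transcript (linear axis from 0), sorted from high to low; bar colours mark factors, sarcomere genes and the remaining members. Actc1 stands at 36.5, Myog ranks 4 at 12.9 and the other factors lie at 4.15 or less.

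The order of these levels differed among libraries in a few places. Actc1 led in both SIS3 libraries (12.9 and 11.4 per kilobase), in SB431542 (35.7) and in E12.5 DMSO. In E13.5 DMSO Tnnt1 led with 17.3 and Actc1 had 14.1. Tnni2, the fast troponin I, had 9.14 per kilobase at E13.5 and was number 5 there. It had 0.652 and 0.276 in SIS3, 1.25 in SB431542 and 2.73 in E12.5 DMSO. Myog ranked 6 and 4 in the SIS3 libraries, 8 in SB431542, 13 at E13.5 and 4 in E12.5 DMSO. Klhl41 ranked 4 and 2 in the SIS3 libraries. These are ranks within single libraries, with no replicate outside SIS3.

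The members include genes that heart muscle also uses, among them Actc1, Tnnt2, Tnnc1 and Myl4. Of 12 heart genes, 7 and 8 had 0 counts in the SIS3 libraries, 1 in SB431542, 5 in E13.5 DMSO and 3 in E12.5 DMSO. The list summed to 14 and 17.5 CPM with SIS3, 17.2 with SB431542, 50.8 at E13.5 and 17.1 in E12.5 DMSO, most of it from Hcn4 and Ryr2. Nppb had 0 counts in every library, Nkx2-5 and Myl2 had at most 1, and Nppa had 0 and 0 in SIS3, 2 in SB431542, 0 in E13.5 DMSO and 5 in E12.5 DMSO. The atrial light chain Myl7 had 0 and 0 counts in SIS3, 1 in SB431542, 92 in E13.5 DMSO and 0 in E12.5 DMSO. Myh6 had 1 and 0 counts in SIS3, 10 in SB431542, 33 in E13.5 DMSO and 23 in E12.5 DMSO. In the same order Tnni3 had 7 and 7, 45, 41 and 19, and Myl3 had 2 and 3, 19, 0 and 14. Mybpc3 had 0 and 0, 5, 18 and 1, and Gata4 0 and 0, 10, 5 and 2. All these counts are raw, and they and the numbers of genes at 0 depend on the depth of the library. Of the skeletal lineage factors, Myod1 had 43 and 37, 180, 0 and 239 counts in that order. In CPM these were 7.17 and 3.92, 6.39, 0 and 7.72. Myog had 39 and 70, 437, 111 and 595 counts, or 6.51 and 7.42, 15.5, 6.34 and 19.2 CPM.

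**Figure D2:**
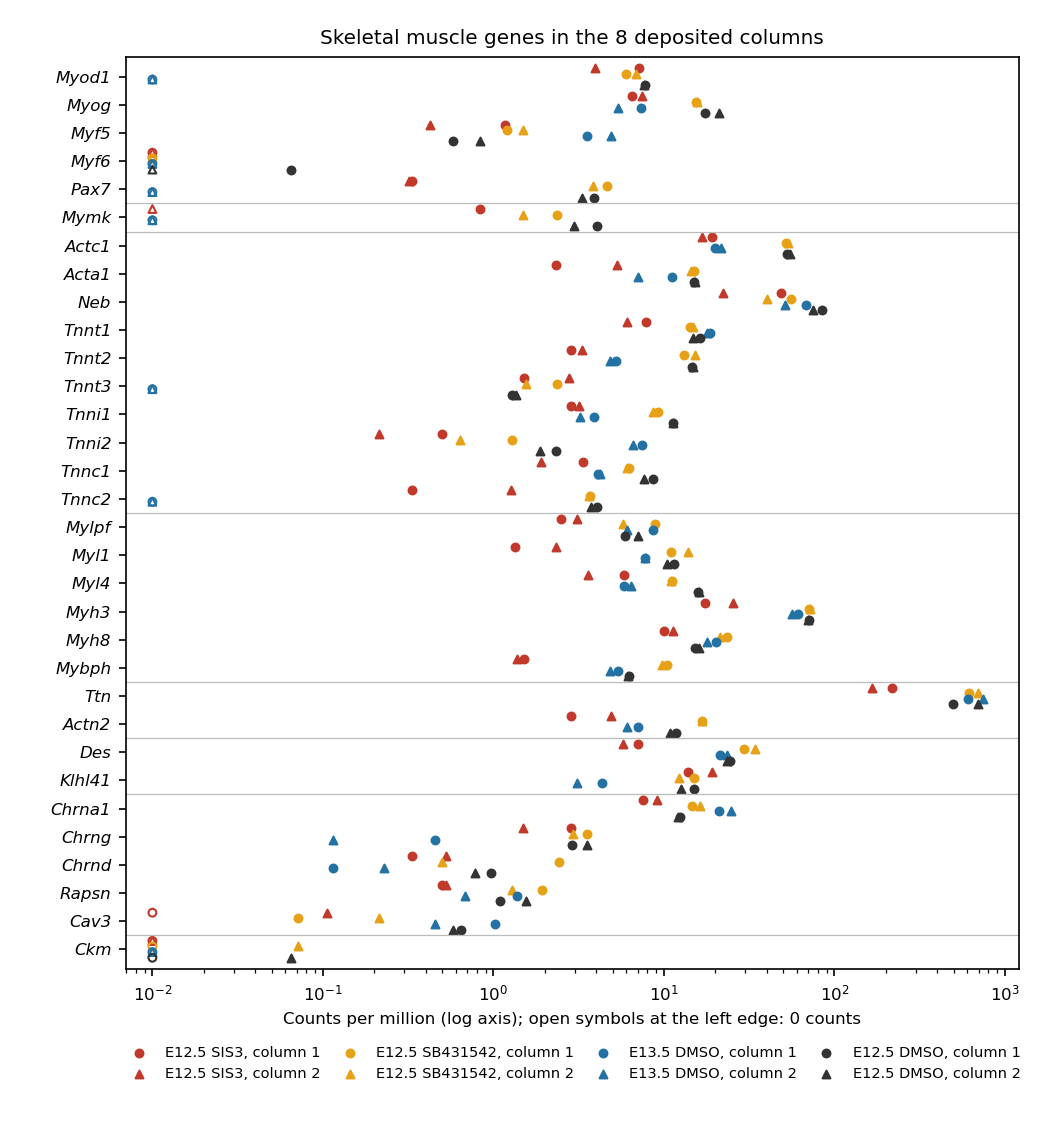
Level in CPM (log axis) of the 32 genes in the 8 deposited columns, from the top by role: factors, fusion, thin filament, thick filament, titin and Z-disc, scaffold, membrane and endplate, energy. Circles are column 1, triangles column 2, and open symbols at the left edge are columns with 0 counts. SIS3 columns lie left of the other E12.5 columns for most sarcomere genes, and Myod1, Pax7, Mymk, Tnnt3 and Tnnc2 are at 0 in both E13.5 columns.

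SIS3 against DMSO at E12.5 asked what inhibition of Smad3 changed. With SIS3, 6 of the 30 tested muscle genes fell and 0 rose, where 3.03% of all 19022 tested genes fell and 0.794% rose (quasi-likelihood test of edgeR, p-values adjusted by Benjamini-Hochberg over all tested genes, 0.05). 5 of the 6 were sarcomere genes, which make up 18 of the 30 tested, and the other was Des. The 4 tested factors gave 0 calls. With 4 genes, and 3.03% of all genes called lower, this does not set the factors apart. At an unadjusted p under 0.05, 15 of 18 sarcomere genes and 2 of 4 factors were lower, against 11% of all tested genes, and 0 members were higher, against 5.82%.

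Ttn encodes titin (GRCm38 chromosome 2, 76703980 to 76982547, minus strand). It had 1304 and 1563 counts in the SIS3 columns, against 7709 and 10791 in the E12.5 DMSO columns. That is 217 and 166 CPM with SIS3 and 597 CPM in the E12.5 DMSO library. It fell by 1.71 on the log2 scale (SE 0.29, edgeR adjusted p 0.00437).

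Myh3 (chromosome 11, 67078300 to 67102291, plus strand), the embryonic myosin heavy chain, had 105 and 238 counts with SIS3, against 1097 and 1076 in DMSO. The levels were 17.5 and 25.2 CPM with SIS3 and 70.1 CPM in DMSO, so that both SIS3 libraries were below the DMSO library. The log2 fold change was -1.78 (SE 0.35, edgeR adjusted p 0.00902). Myl1, a fast light chain of the same filament, had 8 and 22 counts with SIS3 and 178 and 161 in DMSO, or 1.33 and 2.33 CPM against 10.9 CPM. It fell by 2.62 (SE 0.64, edgeR adjusted p 0.031), the steepest of the 6.

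On the thin filament, Actc1 had 114 and 158 counts with SIS3, against 818 and 847 in DMSO, or 19 and 16.8 CPM against 53.7 CPM. It fell by 1.66 (SE 0.37, edgeR adjusted p 0.0191). Tnnt2, a troponin T of heart and embryonic skeletal muscle, had 17 and 31 counts with SIS3 and 225 and 230 in DMSO, or 2.83 and 3.29 CPM against 14.7 CPM. It fell by 2.33 (SE 0.58, edgeR adjusted p 0.0347). For both genes the SIS3 libraries were below the DMSO library, whose columns were counted as 1 sample. The share of all genes with that order was not computed. Des, desmin, the muscle intermediate filament (chromosome 1, 75360329 to 75368579, plus strand), had 42 and 54 counts with SIS3, against 379 and 362 in DMSO, or 7.01 and 5.73 CPM against 23.9 CPM. It fell by 1.99 (SE 0.45, edgeR adjusted p 0.0221). Des is also made by smooth muscle, and Smtn was the other of 8 smooth muscle genes that fell.

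Most sarcomere genes that did not pass had lower values too. The 18 ranged from -2.69 (Tnni2) to 0.62 (Tnnt3), with a median of -1.76, against 0 for all tested genes, and 17 of the 18 were below 0. Acta1, the skeletal actin, had 2.33 and 5.3 CPM with SIS3, against 15 and 15.2 CPM in the DMSO columns (log2 fold change -2.03, edgeR adjusted p 0.0742). The paired DMSO values given here are columns counted as 1 sample and not replicates. Tnni1, the slow troponin I, had 2.83 and 3.18 CPM with SIS3, against 11.3 and 11.4 CPM in DMSO. Neb, nebulin, the thin filament's ruler, had 48.7 and 22.2 CPM with SIS3 and 84.3 and 74.8 CPM in DMSO. Myh8, the perinatal myosin heavy chain, had values nearer to those of DMSO, at 10.01 and 11.3 CPM with SIS3 and 15.2 and 15.9 CPM in DMSO (log2 fold change -0.61, edgeR adjusted p 0.556). Tnnt3, the fast troponin T, had 9 and 26 counts with SIS3, against 20 and 21. Its 1.5 and 2.76 CPM with SIS3 were above its 1.32 CPM in DMSO, and it was not called.

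The tested factors ran from -3.51 to 0.03, with a median of -1.04. Myod1 had 43 and 37 counts with SIS3, against 120 and 119 in DMSO. In CPM these were 7.17 and 3.92 with SIS3 and 7.72 in DMSO, and the log2 fold change of -0.55 had a 95% confidence interval from -2.04 to 0.93. Myog had 39 and 70 counts with SIS3 and 271 and 324 in DMSO, or 6.51 and 7.42 CPM against 19.2 CPM (log2 fold change -1.53, SE 0.52, edgeR adjusted p 0.121). Both SIS3 libraries were below the DMSO library for Myog. Pax7, the progenitor factor, had 2 and 3 counts with SIS3, against 60 and 51 in DMSO, or 0.334 and 0.318 CPM against 3.58 CPM. This was the largest difference among the 30 in this comparison (log2 fold change -3.51, SE 1.09), and it missed the threshold (edgeR adjusted p 0.0748). Myf5 had 7 and 4 counts with SIS3 and 9 and 13 in DMSO. At 1.17 and 0.424 CPM the SIS3 libraries lay on either side of the 0.71 CPM in DMSO. Whether factors and sarcomere genes differ in their response was not tested.

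Of the remaining 8 tested genes, Mymk had 5 and 0 counts with SIS3 and 63 and 46 in DMSO, or 0.834 and 0 CPM against 3.52 CPM, and it was not called (edgeR adjusted p 0.234). Klhl41 had 83 and 181 counts with SIS3, against 232 and 196 in DMSO. Its 13.8 and 19.2 CPM with SIS3 and 13.8 CPM in DMSO gave a log2 fold change of 0.19 with a 95% confidence interval from -0.90 to 1.27. The acetylcholine receptor subunits of the endplate and their clustering protein Rapsn lay between -0.64 (Chrna1) and -1.42 (Rapsn), with 0 calls. Chrna1 had 7.5 and 9.12 CPM with SIS3 and 12.3 CPM in DMSO. Cav3, the muscle caveolin, had 0 and 1 counts with SIS3 and 10 and 9 in DMSO. The DMSO level was 9.46 times that with SIS3 (exact 95% interval 1.5 to 393, counting error only).

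Both SIS3 libraries were below the SB431542 and the E12.5 DMSO libraries for 25 of the 30 genes, against 30.8% of all tested genes. The 5 exceptions were Myod1, Myf5, Neb, Tnnt3 and Klhl41. Against DMSO the SIS3 libraries gave median log2 differences of -1.72 and -1.83 for the sarcomere genes and of -0.87 and -1.25 for the factors. Without the first SIS3 library Ttn was at -1.94 and without the second at -1.5, as values with no test.

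Lists of other cell types moved in the same libraries. The 10 endothelial genes summed to 48 and 39.8 CPM with SIS3, 491 with SB431542, 457 at E13.5 and 416 in E12.5 DMSO, and 9 of the 10 fell with SIS3. The 8 macrophage genes summed to 5.17 and 4.35 CPM with SIS3, 39.8 with SB431542, 88 at E13.5 and 53.2 in E12.5 DMSO, and 4 of the 8 fell. The 9 dental mesenchyme genes summed to 3062 and 2697 CPM with SIS3, 3581 with SB431542, 2465 at E13.5 and 3514 in E12.5 DMSO, and 1, Dlx2, fell with SIS3. The 8 epithelial genes summed to 61.2 and 245 CPM with SIS3, 41 with SB431542, 175 at E13.5 and 129 in E12.5 DMSO, so that the SIS3 libraries lay on either side of DMSO, and 0 of the 8 were called in any comparison. The 8 smooth muscle genes, Des among them, summed to 94.4 and 79.6 CPM with SIS3, 149 with SB431542, 299 at E13.5 and 176 in E12.5 DMSO. The 17 sarcomere genes other than Ttn summed to 131 and 115 CPM with SIS3 and 342 CPM in E12.5 DMSO. The part of such shifts in the muscle values was not tested.

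**Figure D3:**
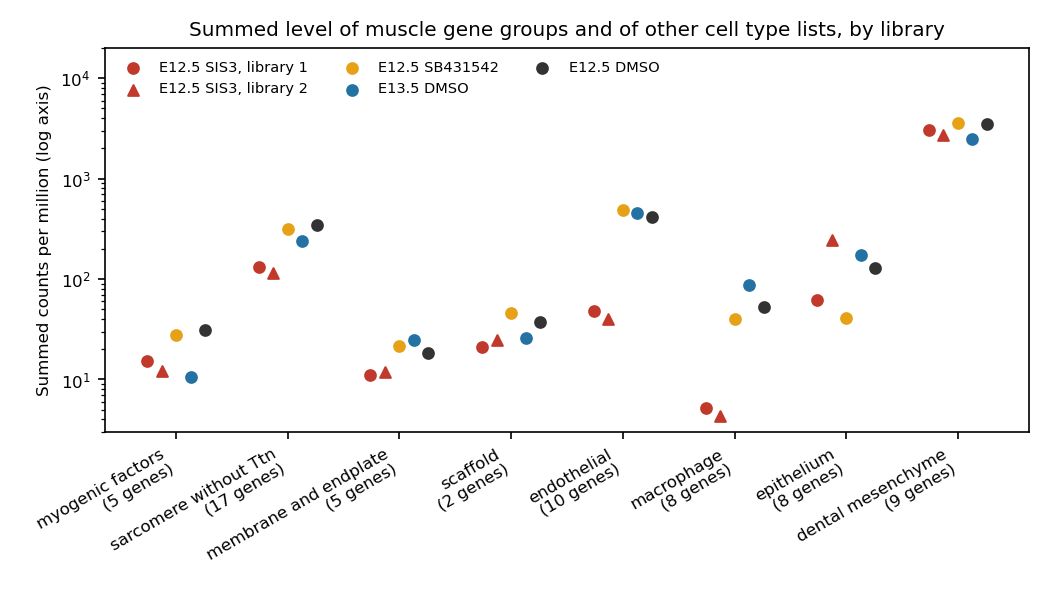
Summed CPM (log axis) of 4 groups of muscle genes and 4 lists of other cell types, 1 point per library. The SIS3 points are the lowest for sarcomere, endplate, scaffold, endothelial and macrophage genes, and all dental mesenchyme sums lie between 2465 and 3581.

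In this comparison 1 of the 6 calls, Ttn, held when trends of the fold change on GC content and transcript length were removed (log2 fold change -1.49, edgeR adjusted p 0.0485) and when the fit used only the SIS3 and DMSO libraries (adjusted p 0.039). The other 5 stayed below 0 in both fits. With the trends removed Myh3 was at -1.55, Actc1 at -1.49, Des at -1.73, Myl1 at -2.45 and Tnnt2 at -2.05, with adjusted p-values of 0.0755 to 0.121. With only both groups they were at -1.77, -1.65, -1.97, -2.61 and -2.32 in the same order, with adjusted p-values of 0.0568 to 0.101. Over all its alternatives Ttn's adjusted p ran from 3.82e-07 to 0.0485. Tnnt2 and Myl1 also missed the threshold in DESeq2, with adjusted p-values of 0.0808 and 0.0666.

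SB431542 against DMSO at E12.5 asked what inhibition of the receptors upstream of Smad2 and Smad3 changed. Of the 30 muscle genes 0 were called in either direction, and 0% of all tested genes were called by edgeR. At an unadjusted p under 0.05 there were 0 members, against 0.568% of all genes higher and 0.668% lower. By DESeq2 0 members were called too, and 3 genes among all. This sets 1 library against 1, with the spread taken from the SIS3 pair, and the median 95% confidence interval of all genes reached 1.24 on the log2 scale to either side.

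The SB431542 values lay close to DMSO for both classes. Log2 fold changes had a median of -0.09 over the sarcomere genes and of -0.07 over the factors. Ttn had 8695 and 9795 counts with SB431542, against 7709 and 10791 in DMSO, and its log2 fold change of 0.08 had a 95% confidence interval from -0.65 to 0.81. Myh3 had 1000 and 1009 counts with SB431542 and 1097 and 1076 in DMSO (interval from -0.88 to 0.83). Actc1 had 731 and 748 counts with SB431542, against 818 and 847. The difference between SB431542 and SIS3, whose kits differ, was not tested for any gene.

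Among the factors, Myod1 had 84 and 96 counts with SB431542, against 120 and 119 in DMSO. Myog had 218 and 219 with SB431542 and 271 and 324 in DMSO (log2 fold change -0.36, interval from -1.62 to 0.90). Pax7 had 65 and 54 with SB431542 and 60 and 51 in DMSO, so that its values overlapped. Myf5 had 17 and 21 with SB431542, against 9 and 13, the highest of the 30 log2 fold changes at 0.87 (interval from -1.59 to 3.33). The lowest was that of Cav3, with 1 and 3 counts with SB431542 and 10 and 9 in DMSO. Neb, with 787 and 565 counts with SB431542 and 1305 and 1158 in DMSO, had the lowest unadjusted p of the 30, 0.201.

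E13.5 against E12.5, both in DMSO, asked what 1 day of development changed in the cultured germs. At E13.5, 3 of the 30 muscle genes fell and 0 rose, where 1.17% of all tested genes fell and 4.06% rose. The 3 were Myod1 and Pax7 among the factors and Tnnc2, the fast troponin C, among the sarcomere genes. All 3 are listed at 0 counts in both E13.5 columns. Whether a gene listed at 0 there had no reads or was left without an estimate by the authors' quantification was not tested, and this holds for Mymk and Tnnt3 below as well. This comparison shares its E12.5 DMSO library with the 2 above.

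Myod1 (chromosome 7, 46376474 to 46379099, plus strand) had 0 and 0 counts at E13.5, against 120 and 119 at E12.5. Set against the floor of 3 counts in the E13.5 library it was at least 45.1-fold lower (edgeR adjusted p 0.0038). Pax7 (chromosome 4, 139737062 to 139833528, minus strand) had 0 and 0 counts at E13.5 and 60 and 51 at E12.5, at least 20.9-fold lower (edgeR adjusted p 0.0227). Tnnc2 had 0 and 0 at E13.5, against 63 and 58, at least 22.8-fold lower (edgeR adjusted p 0.0262). Of Tnnc2's transcript sequence, 59% of the stretches of 31 bases also occur in Ube2c, which overlaps it on the opposite strand and had 17.5 CPM at E13.5 and 35.5 CPM at E12.5, so without strand, reads of the 2 genes cannot be told apart there.

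A pair of further members were at 0 at E13.5 and missed the threshold. Mymk had 0 and 0 counts at E13.5, against 63 and 46 at E12.5 (edgeR adjusted p 0.0758), and Tnnt3 had 0 and 0, against 20 and 21 (adjusted p 0.0644). Together 5 of the 10 members with 1 to 8 CPM at E12.5 were at 0 at E13.5, against 6.75% of the 3941 genes in that window, which was set after the values were seen. In the same window 0 of 10 members were at 0 in the summed SIS3 libraries, against 2.79% of genes, and 0 of 10 with SB431542, against 0.304%.

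Myf6 was at 0 in both E13.5 columns too, and it had 1 count at E12.5. Myog and Myf5 had counts at both stages. Myog had 64 and 47 counts at E13.5, against 271 and 324 at E12.5, or 6.34 CPM against 19.2 CPM (log2 fold change -1.57, SE 0.59, edgeR adjusted p 0.137). Myf5, the early factor, had 31 and 43 counts at E13.5 and 9 and 13 at E12.5. Its 4.22 CPM at E13.5 was the highest of the 5 libraries, against 0.71 CPM at E12.5, and it was not called (log2 fold change 2.59, SE 1.13, edgeR adjusted p 0.195). Myf5 was the only member higher at an unadjusted p under 0.05, against 15.4% of all genes, and 11 members were lower, against 8.88%. All 4 tested factors were among these 12.

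Of the sarcomere genes, Tnnc2 was the only one called. Their median log2 fold change was -0.58, against 0 for all genes, and that of the factors was -2.98 with genes at 0 set at their bound. Ttn had 5313 and 6537 counts at E13.5 and 7709 and 10791 at E12.5, or 676 CPM against 597 CPM. Myh3 had 534 and 494 counts at E13.5, against 1097 and 1076, or 58.7 CPM against 70.1 CPM. Neither differed beyond the spread, with 95% confidence intervals from -0.52 to 0.94 and from -1.08 to 0.63. Ttn's log2 fold change of 0.21 turned to -0.75 with GC and length trends removed. Actc1 had 174 and 189 counts at E13.5 and 818 and 847 at E12.5, or 20.7 CPM against 53.7 CPM (log2 fold change -1.34, SE 0.42, edgeR adjusted p 0.0824). Tnni2 had 65 and 58 at E13.5, against 36 and 29, or 7.02 CPM against 2.1 CPM (log2 fold change 1.77, adjusted p 0.301).

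At the membrane the receptor subunits had values on both sides of 0. Chrng, the fetal gamma subunit, had 4 and 1 counts at E13.5, against 45 and 55 at E12.5, or 0.285 CPM against 3.23 CPM (log2 fold change -3.44, SE 1.18, edgeR adjusted p 0.105). Chrna1, the alpha subunit, had 183 and 216 at E13.5 and 193 and 188 at E12.5, or 22.8 CPM against 12.3 CPM (log2 fold change 0.92, adjusted p 0.341). Klhl41 had 38 and 27 at E13.5, against 232 and 196, or 3.71 CPM against 13.8 CPM (log2 fold change -1.86, adjusted p 0.0882). Des had 186 and 206 at E13.5 and 379 and 362 at E12.5, 22.4 CPM against 23.9 CPM.

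**Figure D4:**
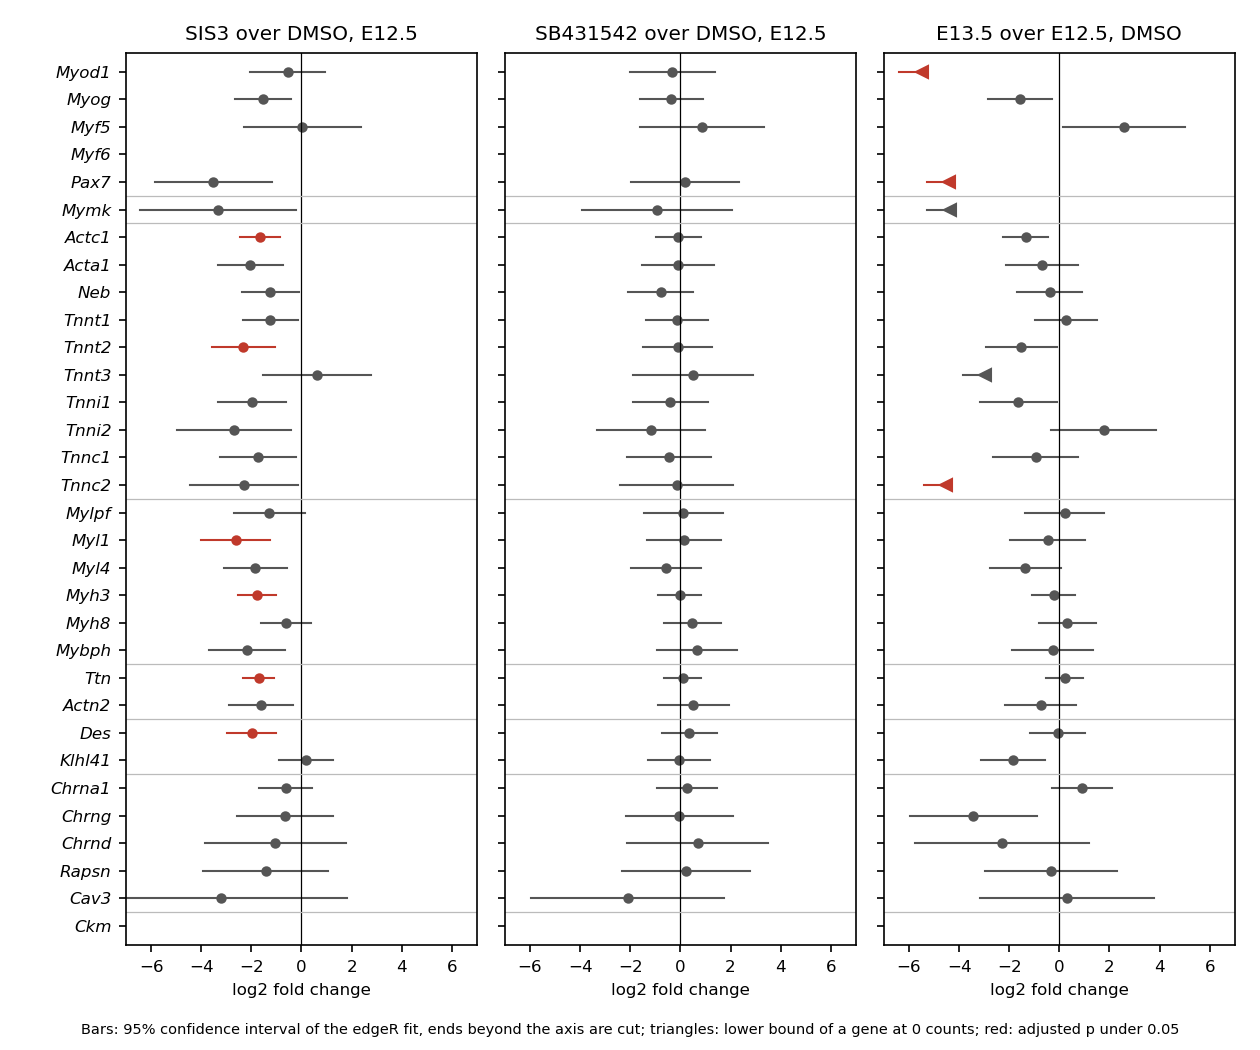
Log2 fold change of the 30 tested genes in the 3 comparisons, with 95% confidence intervals from the edgeR fit. Triangles are the lower bound of genes at 0 counts at E13.5, red marks an adjusted p under 0.05, and interval ends beyond 7 are not drawn. There are 6 red genes in the SIS3 panel, 0 in the SB431542 panel and 3 in the E13.5 panel.

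Of the 3 stage calls, Pax7 and Tnnc2 missed the threshold without either E13.5 column (Pax7 0.0649 and 0.068, Tnnc2 0.0737 and 0.0801) and in DESeq2 (0.0611 and 0.0549). Myod1's adjusted p ran from 5.27e-07 to 0.0507 over its alternatives, the highest with GC and length trends removed, where 0 of the 3 were called.

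Within each library the balance of factors to sarcomere genes can be read without scaling between libraries. Of the counts on the 5 factors and the 17 sarcomere genes other than Ttn, the factors took 10.4% (exact 95% binomial interval 8.46 to 12.6%) and 9.53% (7.93 to 11.3%) in the SIS3 libraries. They took 7.99% (7.45 to 8.54%) with SB431542, 4.25% (3.67 to 4.89%) at E13.5 and 8.37% (7.88 to 8.89%) in E12.5 DMSO. The E13.5 share was the lowest and its interval overlapped none of the others. The intervals of both SIS3 libraries overlapped that of E12.5 DMSO, and the intervals cover counting error only. The E13.5 share rests in part on the 0 counts of Myod1 and Pax7. Myog made up 42.9% and 61.4% of the factor counts in the SIS3 libraries, 56.5% with SB431542, 60% at E13.5 and 61.5% in E12.5 DMSO.

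The ratio of Myh3 to Myh8 counts, embryonic to perinatal myosin heavy chain, was 1.75 and 2.22 in the SIS3 libraries, 3.2 with SB431542, 3.08 at E13.5 and 4.51 in E12.5 DMSO. In Myh3 11.1% and in Myh8 18.6% of the stretches of 31 bases occur in another gene, mostly in Myh2, which had at most 1.26 CPM. Mybph shares 46.4%, mostly with Adora1, which overlaps it on the opposite strand, and Myl1 14.5%, mostly with a pseudogene, so their counts are less certain. For every other tested member but Tnnc2 the share was under 7%.

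A list of 64 further skeletal muscle genes, of which 54 were tested, gave 3 lower and 0 higher with SIS3 (against 3.03% and 0.794% of all tested genes), 0 with SB431542, and 2 lower and 0 higher at E13.5 (against 1.17% and 4.06%). Its 64 genes summed to 976 and 829 CPM with SIS3, 884 CPM with SB431542, 825 CPM at E13.5 and 879 CPM in E12.5 DMSO, so the SIS3 sums lay on either side of that of DMSO, unlike those of the members. Atp2a1, the calcium pump of fast muscle, had 44 counts over both SIS3 libraries, 7 counts at E13.5 and 538 counts at E12.5 in DMSO. It fell in both comparisons, with log2 fold changes of -2.69 (SE 0.62, edgeR adjusted p 0.0226) with SIS3 and -5.39 (SE 0.82, adjusted p 0.00387) at E13.5. With SIS3, Actn3, a Z-disc actinin of fast fibres, fell by 2.96 (adjusted p 0.0414), and Fbxo32, a ubiquitin ligase of muscle atrophy, fell by 1.55 (adjusted p 0.0489). Pygm, the muscle glycogen phosphorylase, had 0 counts at E13.5 and 83 at E12.5, at least 15.6-fold lower (adjusted p 0.0173). The list's median log2 fold change was -0.72 with SIS3, with the gene at 0 set at its bound, -0.14 with SB431542 and -0.32 at E13.5.

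Paired columns counted as 1 sample also show how steady single genes are. Outside the 95% range of dividing a gene's counts at random stood 6 of 31 members with counts in SB431542, 4 of 25 at E13.5 and 3 of 32 in E12.5 DMSO. Ttn and Neb, with 25 and 13 annotated transcripts, were among them in all 3 groups. The share of all genes outside that range was not counted, so no trait of the members is read from it. Over genes with 2 or more transcripts the median squared difference was 1.72 to 2.26 times that of random division in these groups. Ttn's 7709 and 10791 counts in the E12.5 DMSO columns are the widest case, and its SIS3 fold change was -1.93 without the first of these columns and -1.44 without the second.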

How the data were processed

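Per the labels, RNA-seq libraries were made from cultured molar tooth germs, 2 columns in each of 4 groups. The values are estimated counts per gene, deposited by the authors as whole numbers and not scaled. The submitters' processing notes list deepTools, DESeq2, HISAT2, Salmon and SAMtools with no role for any, and mm10 as the build. No annotation, counting option or strand setting is given there. Salmon shares out ambiguous reads by estimation, which can move counts between near-identical genes. Columns were matched to samples by name.

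The muscle genes and all other lists were chosen with earlier results of these data known. All 32 members are named, and genes of other lists where they passed the test or a result turned on them. Paired columns that differed by about the sampling noise were summed, leaving 5 libraries of 5995709 to 30975010 counts. Genes kept by filterByExpr (19022) were fitted with edgeR 4.0.16 in R 4.3.3 (TMM, robust quasi-likelihood, group as the only factor), with Benjamini-Hochberg adjustment over all of them at 0.05. The fit had 1 residual degree of freedom, from the SIS3 pair, plus a median of 12.5 borrowed across genes, and single libraries are taken to vary like that pair. No source used here says whether columns of a group are separate cultures, so p-values may measure technical spread. edgeR's common coefficient of variation came to 29.3%. As a median over genes, the 95% confidence interval reached 1.09 (SIS3), 1.24 (SB431542) and 1.25 (stage) on the log2 scale to each side. In simulated counts, changes were placed only in genes with a mean above 5 CPM. Of these, 4-fold changes were recovered in 73.1% (SIS3, 16559 genes fitted), 52.2% (SB431542, 16538) and 59.7% (stage, 16551) of cases. The 2-fold changes were recovered in 5.97%, 2.99% and 2.99%. Recovery at lower levels, such as those of Pax7, Myf5 and Mymk, was not measured.

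Fold changes are the group named first over E12.5 DMSO. For genes at 0, folds are bounds against 3 counts in the library. Lengths, positions and 31-base sharing come from GENCODE M21 (GRCm38), and promoter sequences from RefSeq (GRCm38.p6). DESeq2 1.42.0, other size factors, no filter, all 8 columns, a replicate block, GC and length trends removed, 2 groups only and leaving out each column were tried as alternatives.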

Additional observations from a re-analysis of the deposited data

How the results depend on the processing

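The counts of called members with SIS3 and at E13.5 depended on the processing, while SB431542 gave 0 calls among the members under every alternative run. With SIS3, 6 members were lower as reported, 10 without the filter on low counts, 22 with all 8 columns as replicates, 22 with these and the replicate block, 1 with GC and length trends removed and 1 with the libraries of both groups only. At E13.5, 3 were lower as reported, 7 without the filter, 1 in DESeq2, 14 lower and 3 higher with 8 columns, 14 lower and 3 higher with the replicate block, 0 with GC and length trends removed, and 1 to 3 without single columns. Same-numbered columns did not deviate together (correlations from -0.011 to 0.001), so the block rests on a number alone. With GC and length trends removed, the SIS3 medians were -0.77 (factors) and -1.49 (sarcomere) and the stage median of the sarcomere genes -0.67. The same setting turned the sign of Myf5 with SIS3 (-0.12), of Myh3 (0.01) and Ttn (-0.06) with SB431542, and of Ttn (-0.75) and Des (0.02) at E13.5, and 8 columns turned that of Myf5 with SIS3 (-0.01). Of these, Ttn at E13.5 moved furthest, and the cause was not tested. Leaving out 1 column or SIS3 library at a time, the median of the sarcomere genes ran from -1.85 to -1.79 with SIS3 and from -0.73 to -0.42 at E13.5. Members near 0 changed sign. With SIS3, Myf5 ran from -0.83 to 0.67 and Klhl41 from -0.04 to 0.38. With SB431542, Mylpf ran from -0.22 to 0.39, Myl1 from -0.05 to 0.29, Ttn from -0.14 to 0.35, Klhl41 from -0.22 to 0.06, Chrng from -0.2 to 0.1, Chrnd from -0.85 to 1.41 and Rapsn from -0.1 to 0.49. At E13.5, Mylpf ran from -0.06 to 0.47, Des from -0.13 to 0.01 and Rapsn from -0.91 to 0.09. None of these sign changes involved a call of the reported fit. Leaving out an SIS3 library left no residual degrees of freedom, so those are values with no test, and the fit with both groups only could not be made for SB431542 or the stage. Every spread comes from 1 pair of libraries.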

Other observations

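At E13.5 the atrial myosin light chain Myl7 had 92 counts, and it had 0 in E12.5 DMSO. Ryr2, a calcium channel best known from heart and brain, had 618 at E13.5, against 200 in E12.5 DMSO. Both rose at E13.5 (edgeR, adjusted over all genes). Nppa, Nppb, Nkx2-5, Myl2 and Myl3 had 0 counts in that library, against 5, 0, 1, 0 and 14 in E12.5 DMSO. Mybpc3 had 18 at E13.5 against 1, Myh6 33 against 23, Tnni3 41 against 19, Gata4 5 against 2 and Hcn4 83 against 264. These counts are raw, from libraries of 17519118 counts at E13.5 and 30975010 counts in E12.5 DMSO. The median log2 fold change of the 7 tested heart genes was 1.95. Tagln, of the smooth muscle list, was the other gene of the contractile lists that rose at E13.5.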
